A study of Mus musculus with 12 samples.

Results

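The genes described here are mostly G protein-coupled receptors (GPCRs) and regulators of G protein signalling (RGS). All were listed for a difference between groups in CD31+ cells of mouse lung. They were taken by name: every protein-coding gene in the 4 deposited tables whose symbol begins with Adgr, Gpr and a digit, Adra, Adrb, Rgs and a digit, S1pr, Lpar, P2ry, Ptger, Calcrl, Ramp and a digit, or F2r. The rule found 63 of the 9338 genes in the tables. Of these, 24 were numbered Gpr genes, 14 adhesion receptors, 6 RGS genes, 5 purinergic receptors and 5 lysophospholipid receptors. A further 3 were protease-activated receptors, 2 adrenergic receptors and 1 a prostaglandin receptor. The last 3 were the calcitonin receptor-like receptor and its RAMP partners. The same names match 166 protein-coding genes of RefSeq, and the others were not analysed here.

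RNA was sequenced from 12 male mice on a C57Bl/6J background, 3 in each of 4 groups, at 30 weeks of age. All mice were TET2 fl/fl and all received tamoxifen (40 mg/kg, given on 3 days when they were 6 to 8 weeks old). TET2 KO mice carried the tamoxifen-inducible Cdh5-CreERT2 recombinase, which is driven by the promoter of the VE-cadherin gene and so acts in endothelial cells, whereas WT mice were littermates without it. For 20 weeks mice ate standard chow, with 13% of its energy as fat, or a high-fat diet (HFD) with 60%, giving the groups WT chow, TET2 KO chow, WT HFD and TET2 KO HFD. Cells were selected with microbeads against CD31, an adhesion molecule of endothelial cells that platelets and many leukocytes also carry.

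GPCRs span the cell membrane and, once a ligand binds, activate heterotrimeric G proteins inside the cell. RGS proteins speed the hydrolysis of GTP by the G protein alpha subunit and so shorten the signal. In the vessel wall these receptors read adrenomedullin, thrombin, lysophospholipids and nucleotides and set barrier tightness and tone, and on leukocytes they guide movement between blood and tissue.

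A table holds a gene only if the authors' DESeq2 test gave it an unadjusted p-value under 0.05, so a gene had to differ in that comparison to have values in it. The tables list 13 of the members among 1298 genes for TET2 KO against WT on chow, 47 among 7330 for HFD against chow in WT, 36 among 3939 for TET2 KO against WT on HFD, and 14 among 1628 for HFD against chow in TET2 KO. Members listed in 1, 2 and 3 tables numbered 25, 29 and 9, and 0 were in all 4. All counts below are conditional on this listing, and a gene that was not listed in a comparison has no value in it. A gene was called at an unadjusted p under 0.05 of edgeR's quasi-likelihood test, and p-values were adjusted by Benjamini-Hochberg for the full set of genes that the authors had adjusted, between 18463 and 23768 per comparison. The number of reads counted on genes lay between 36.7 and 56.8 M per library (median 39.6 M).

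Tet2 itself was listed only for HFD against chow in WT, where it had 4503 ± 230 normalized counts in the WT HFD group against 3533 ± 179 in WT chow (mean ± SD, n = 3 each). It was not listed in either comparison of the genotypes, so the knockout was not checked in these libraries and the genotypes rest on the sample labels. Endothelial markers were abundant, but so were transcripts of other lung cells. The macrophage lysozyme Lyz2 averaged 3646 FPKM (a level corrected for library size and gene length) over the libraries that list it, against 134 for the endothelial cadherin Cdh5. In bulk RNA of this kind, fewer cells of a type and less RNA per cell cannot be told apart.

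The members covered a wide range of levels. By mean FPKM over the libraries that list them, 16 members lay over 10, 32 from 1 to 10 and 15 under 1. The leukocyte receptor Adgre5 (CD97) averaged 227 FPKM, P2ry10 166 and Gpr132 163, and the endothelial receptors Calcrl and Adgrf5 averaged 85.9 and 73.9. Their order varied with the group. In WT chow, P2ry10 (189) and Gpr132 (171) lay above Adgre5 (163), and in WT HFD, Adgre5 (298) was followed by Calcrl (138), P2ry10 (131) and Gpr132 (119). Gpr132 has no value in TET2 KO chow. Gpr22, a receptor of heart and brain, was the lowest at 0.0212.

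HFD was first compared with chow in WT mice. Of the 47 members listed there, edgeR called 41 (87.2%; 91.6% of all 7330 listed genes were called). Those that rose numbered 25 (53.2%, against 42.4% of all listed genes) and those that fell 16 (34%, against 49.2%), with a median log2 fold change of 0.67 over the members and -0.32 over all listed genes. The latter turned to 0.27 when genes with a mean under 10 normalized counts were left out. The 3 HFD libraries did not overlap the 3 chow libraries for 35 members (74.5%, against 86.5%). An adjusted p under 0.05 was reached by 14 members with edgeR, 32 with DESeq2 and 17 with limma-trend. Over all 7330 listed genes these numbers were 1368, 4586 and 2122. Without WT HFD replicate 1 the calls numbered 26, and without WT chow replicate 2 they numbered 25.

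**Figure D1:**
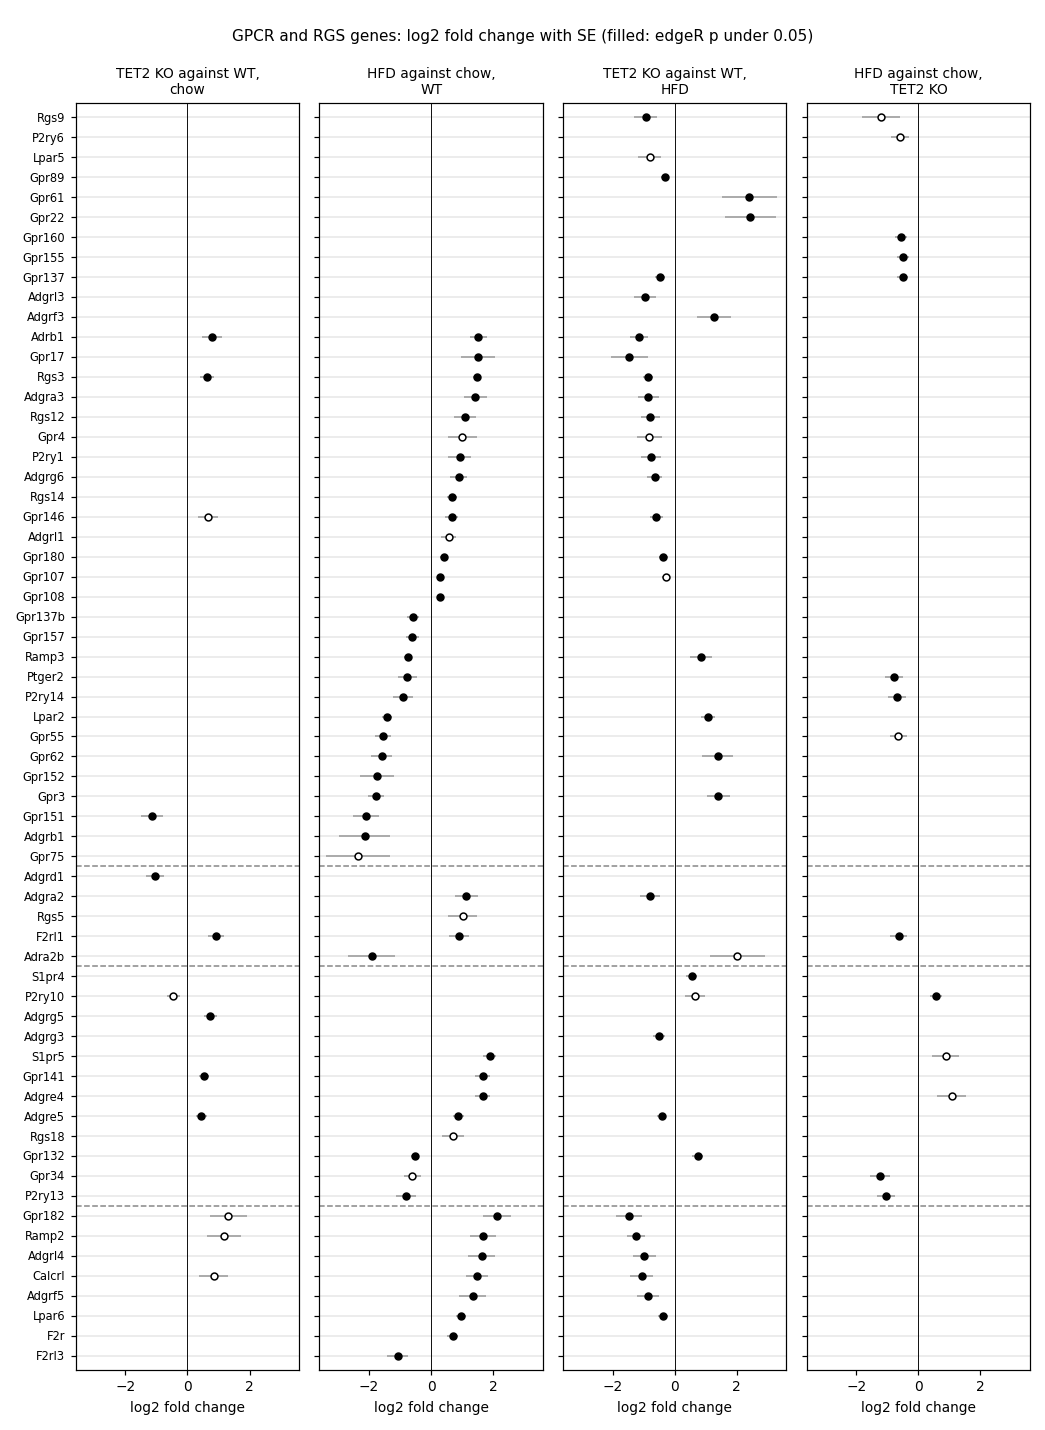
Log2 fold change (x axis) of each member (rows) in the 4 comparisons, with SE bars; filled points have an unadjusted edgeR p under 0.05, open points do not, and a gene with no point was not listed. From the bottom, dashed lines separate endothelial receptors, leukocyte receptors and RGS, mural and fibroblast receptors and RGS, and the remaining members; of the 8 endothelial receptors, 7 lie right of 0 for HFD in WT and all 6 that are listed lie left of 0 for TET2 KO on HFD.

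Most receptors on the list of endothelial receptors rose together on HFD in WT. Of the 10 on that list 8 were listed, and 7 of the 8 rose (median log2 fold change 1.41) while 1, F2rl3, fell. Of all 7330 genes listed in that comparison, 91.6% were called, 42.4% as higher and 49.2% as lower. The list rests on general knowledge of the genes, and the cells that express them were not measured here. Calcrl (ENSMUSG00000059588, chromosome 2, 84330626 to 84425411 of GRCm38) encodes the receptor that binds adrenomedullin when paired with RAMP2. It had 36020, 30572 and 18311 normalized counts in the WT HFD libraries and 7602, 7840 and 15120 in the WT chow libraries. The groups did not overlap, and WT chow replicate 3 stood at about the level of the lowest HFD library. The log2 fold change was 1.47 (SE 0.35, edgeR adjusted p = 0.055), which fell short of the adjusted threshold.

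Ramp2 (ENSMUSG00000001240, chromosome 11, 101246028 to 101259546), the partner of Calcrl, showed the same order of libraries. It had 13757, 8929 and 8163 normalized counts on HFD and 2077, 2126 and 5435 on chow, a log2 fold change of 1.68 (SE 0.42, edgeR adjusted p = 0.0596). Gpr182 (ENSMUSG00000058396, chromosome 10, 127747276 to 127751732), an atypical chemokine receptor of endothelium, had 2265, 1409 and 844 on HFD and 264, 237 and 534 on chow. Its rise was the largest of the members, 2.13 on the log2 scale (SE 0.45, edgeR adjusted p = 0.0446). Ramp3, the other adrenomedullin partner, went the other way, with 1144, 1383 and 1329 on HFD and 2394, 2020 and 1959 on chow, and fell by 0.73 on the log2 scale (SE 0.13, edgeR adjusted p = 0.0372).

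The endothelial adhesion receptors rose with them. Adgrl4 (ELTD1), a receptor of sprouting vessels, had 11983, 9688 and 5876 normalized counts on HFD and 1890, 1981 and 5031 on chow (log2 fold change 1.63, SE 0.44). Adgrf5 (GPR116) had 55585, 44604 and 29071 on HFD and 11220, 10879 and 28975 on chow (1.34, SE 0.43). In both genes WT chow replicate 3 came close to the lowest HFD library. Without WT HFD replicate 1, WT chow replicate 1 or WT chow replicate 2 the call of Adgrf5 was lost, and over the 6 fits that left out a library its log2 fold change lay between 1.10 and 1.96.

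Receptors for thrombin and lysophosphatidic acid were split. F2r, the thrombin receptor PAR1, had 1318, 1011 and 925 normalized counts on HFD and 736, 579 and 709 on chow (log2 fold change 0.69, SE 0.18), and F2rl1, the trypsin receptor PAR2, rose by 0.90 (SE 0.31), a call that was lost without WT HFD replicate 1 or 2 or WT chow replicate 2 or 3 (range 0.68 to 1.16). F2rl3, the thrombin receptor PAR4, was low in all libraries, with 47.2, 22.2 and 43.9 on HFD and 64.7, 88.3 and 89.2 on chow, and fell by 1.08 on the log2 scale (SE 0.34). Lpar6, a receptor for lysophosphatidic acid, had 965, 963 and 937 on HFD and 526, 387 and 552 on chow, with the HFD libraries nearly equal (0.97, SE 0.16, edgeR adjusted p = 0.0368). Lpar2, another receptor for the same lipid, had 430, 528 and 525 on HFD and 1180, 1568 and 1199 on chow and fell by 1.41 (SE 0.16, edgeR adjusted p = 0.0357).

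Endothelial markers moved with these receptors. Of the 16 markers on the list 15 were listed in this comparison and 14 rose (93.3%, against 42.4% of all listed genes). Their median log2 fold change was 1.54. Their summed level ran from 326 to 902 FPKM in WT chow and from 1002 to 1780 FPKM in WT HFD, and 0 of them were at 0 in either group. The libraries kept the same order as well. WT chow replicate 3 was the highest of its group for 7 of the 8 endothelial receptors and for 15 of the 15 markers with values there, and WT HFD replicate 1 was the highest for 7 of the 8 receptors and 13 of the 16 markers. Ramp2 is on both lists. The movement was not limited to endothelial markers. Of 13 lung epithelial markers 8 were listed, of which 4 rose, among them Ager (1.34, SE 0.29) and Hopx (1.18, SE 0.26), and 2 fell. The part of either cell type in the rise of the receptors was not tested.

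**Figure D2:**
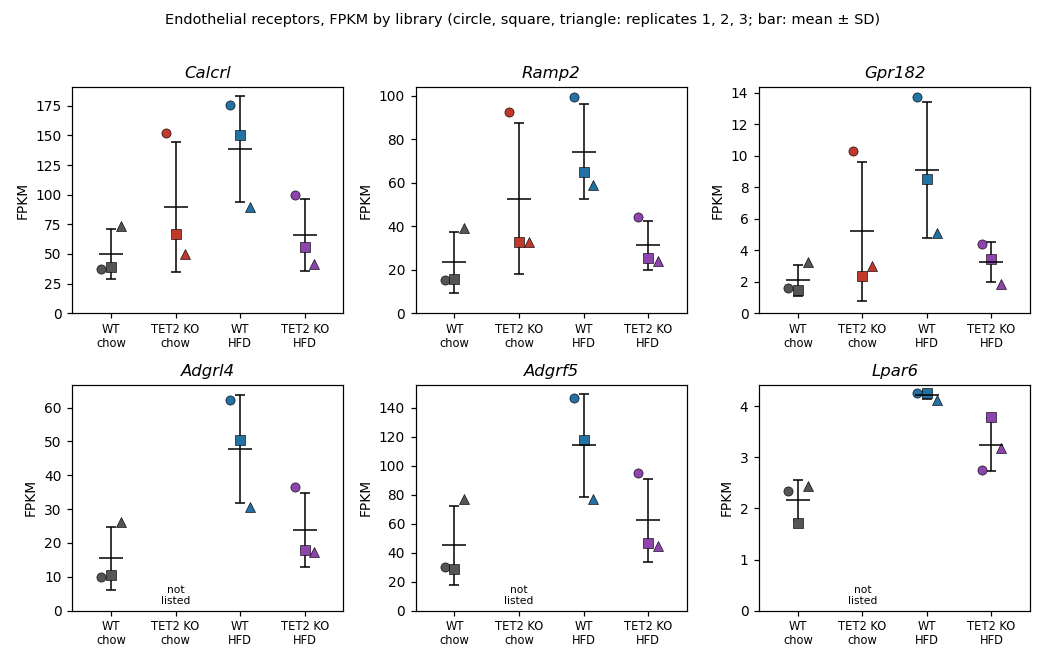
FPKM (y axis) of 6 endothelial receptors in each library, by group (x axis); circle, square and triangle are replicates 1, 2 and 3, and bars give the mean ± SD of 3 libraries. Calcrl runs from 37.3 to 73.9 FPKM in WT chow and from 89.3 to 176 in WT HFD, and in TET2 KO chow 1 library at 152 lies far above the other two.

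When the libraries were scaled to the summed counts of the listed endothelial markers other than Ramp2 in place of the size factors, a scaling chosen after seeing the data, the rises were no longer called. With 14 markers as the scale, the log2 fold change for HFD in WT was 0.07 (SE 0.53) for Calcrl, 0.39 (SE 0.52) for Ramp2, 0.72 (SE 0.50) for Gpr182, 0.31 (SE 0.51) for Adgrl4 and 0.04 (SE 0.54) for Adgrf5. Lpar6 (-0.46, SE 0.51) and F2r (-0.82, SE 0.51) changed sign, and F2rl3 stayed lower (-2.53, SE 0.64). This scaling moved the median log2 fold change of all listed genes from -0.32 to -1.81, and over the members it gave 0 that rose and 21 that fell, in place of 25 and 16. Relative to endothelial markers, 7 of the 8 listed receptors did not pass the threshold. With an SE of about 0.5 that does not show the receptors and the markers to have changed alike. The markers in the scale were themselves listed for a difference in this comparison, and all 15 listed markers were higher on HFD. Scaling by them had to lower the log2 fold changes, so it cannot decide whether the receptors rose beyond the markers.

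**Figure D3:**
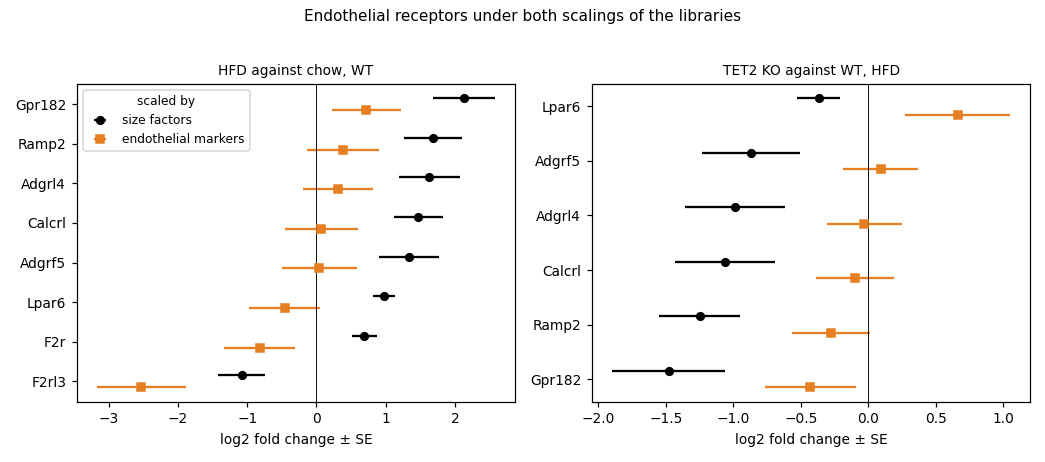
Log2 fold change (x axis) with SE of the listed endothelial receptors (rows) for HFD against chow in WT (left) and TET2 KO against WT on HFD (right), with libraries scaled by the size factors (black circles) or by the summed endothelial markers (orange squares). Calcrl moves from 1.47 to 0.07 on the left and from -1.06 to -0.10 on the right.

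Of the 24 leukocyte receptors and RGS genes on the list, 8 were listed for HFD in WT. Those that rose were 4 (50%, against 42.4% of all listed genes): S1pr5, Adgre4, Gpr141 and Adgre5. Those that fell were 2 (25%, against 49.2%): Gpr132 and P2ry13. Gpr34 (-0.60, SE 0.26) and Rgs18 (0.71, SE 0.35) were not called, and the median log2 fold change of the 8 was 0.79. S1pr5 (ENSMUSG00000045087, chromosome 9, 21242912 to 21248443), the sphingosine 1-phosphate receptor that lets natural killer cells and patrolling monocytes leave the marrow, had 2203, 2244 and 3148 normalized counts on HFD and 676, 557 and 821 on chow. The groups lay well apart, with a log2 fold change of 1.89 (SE 0.21, edgeR adjusted p = 0.0357). Adgre4, an adhesion receptor of macrophages and monocytes, had 10200, 11351 and 16594 on HFD and 3529, 3469 and 5030 on chow (1.67, SE 0.24, edgeR adjusted p = 0.0357). Gpr141, an orphan receptor of myeloid cells, had 1702, 1695 and 2849 on HFD and 559, 643 and 756 on chow (1.67, SE 0.24, edgeR adjusted p = 0.0357). Adgre5 rose by 0.88 (SE 0.18, edgeR adjusted p = 0.0444).

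All 9 of the natural killer cell markers on the list were listed here and rose, as did 42.4% of all listed genes. Their summed level ran from 36.3 to 63.8 FPKM on chow and from 106 to 180 FPKM on HFD, with 0 of them at 0. Of the 7 monocyte and macrophage markers listed, 4 rose and 3 fell. Cx3cr1, the chemokine receptor of patrolling monocytes, rose by 1.90 (SE 0.18), while the macrophage marker Marco fell by 1.25 (SE 0.28). WT HFD replicate 3 was the highest of its group for S1pr5, Adgre4 and Gpr141 and for 9 of the 9 natural killer cell markers. The part of these cells in the rise of S1pr5, Adgre4 and Gpr141 was not tested.

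A further set of receptors fell on HFD in WT. Gpr3 (ENSMUSG00000049649, chromosome 4, 133209340 to 133212536), a receptor that raises cyclic AMP without a known ligand, had 42.8, 49.7 and 71.7 normalized counts on HFD and 162, 194 and 202 on chow, and fell by 1.77 on the log2 scale (SE 0.26, edgeR adjusted p = 0.0357). Gpr55, a lysophosphatidylinositol receptor, had 331, 421 and 625 on HFD and 1255, 1620 and 1141 on chow, and fell by 1.55 (SE 0.26, edgeR adjusted p = 0.0368). Both were lower in every HFD library than in any chow library. Gpr132, a proton- and lipid-sensing receptor of leukocytes, fell less, from 22371, 17835 and 18005 on chow to 12029, 15014 and 13573 on HFD (-0.52, SE 0.14).

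The nucleotide receptors P2ry14 (UDP-glucose) and P2ry13 (ADP) and the prostaglandin E2 receptor Ptger2 also fell, by 0.91 (SE 0.33), 0.80 (SE 0.32) and 0.77 (SE 0.30) on the log2 scale. The order of the libraries was shared: WT HFD replicate 2 was the lowest of its group for all 3 genes (405 for P2ry13, 514 for P2ry14 and 209 normalized counts for Ptger2), and WT chow replicate 2 was the highest. The macrophage markers Marco, Mrc1 and Siglecf fell by 1.25, 1.05 and 1.03 in the same comparison, whereas the other 4 of the 7 listed monocyte and macrophage markers rose. WT HFD replicate 2 was the lowest of its group for 6 of the 7. Their part in the fall of the receptors was not tested. The calls of P2ry13 and Ptger2 were lost without WT HFD replicate 1 or 2 or WT chow replicate 2 or 3, and that of P2ry14 without WT HFD replicate 1 or 2 or WT chow replicate 2. Over these fits the log2 fold changes lay between -1.0 and -0.51 for P2ry13, -1.25 and -0.61 for P2ry14, and -1.06 and -0.55 for Ptger2.

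Among adrenergic receptors and RGS genes, the values were as follows. Adrb1 (ENSMUSG00000035283, chromosome 19, 56722372 to 56724862), the beta-1 receptor for noradrenaline, had 3678, 2268 and 2166 normalized counts on HFD and 780, 783 and 1271 on chow, a log2 fold change of 1.52 (SE 0.28, edgeR adjusted p = 0.0382). Adra2b, an alpha-2 receptor, was scarce and uneven, with 7.38, 9.52 and 30.0 on HFD and 18.1, 50.9 and 106 on chow. It fell by 1.92 (SE 0.77), a call lost without WT HFD replicate 1 or 2 or WT chow replicate 2 or 3 (range -2.78 to -1.16). Rgs3 (ENSMUSG00000059810, chromosome 4, 62559847 to 62704001), which acts on Gi and Gq, had 3253, 2853 and 2473 on HFD and 1068, 971 and 1067 on chow. The libraries of Rgs3 were tight within each group, and its log2 fold change of 1.47 (SE 0.13, edgeR adjusted p = 0.0357) kept its call without each of the 6 libraries, between 1.36 and 1.56. Of the 5 RGS genes listed 3 rose (60%, against 42.4% of all listed genes) and 0 fell. The share called, 60%, lay under the 91.6% of all listed genes. P2ry1, an ADP receptor, rose by 0.92 (SE 0.38) from a mean of 46.2 normalized counts. Its call was lost without WT HFD replicate 1 or 3 or WT chow replicate 2 or 3 (range 0.65 to 1.17).

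TET2 is a dioxygenase that oxidises methylated cytosine, mostly where a C is followed by a G. The sequences just upstream of the start of 5 members are shown as examples that differ in their content of such CG pairs. Methylation was not measured in these libraries. The bases are those of RefSeq on GRCm38.p6, up to 250 before the start and outside the gene as the tables give it, 5′ to 3′ on the strand of the gene, in lower case with each CG in capitals. The first 3 are endothelial receptors that rose on HFD in WT, the fourth is S1pr5 and the last is Gpr3, which fell.
Calcrl, chr2:84425412-84425516, minus strand: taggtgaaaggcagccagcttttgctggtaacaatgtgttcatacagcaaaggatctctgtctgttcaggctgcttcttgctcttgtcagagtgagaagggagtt
Adgrf5, chr17:43360181-43360430, plus strand: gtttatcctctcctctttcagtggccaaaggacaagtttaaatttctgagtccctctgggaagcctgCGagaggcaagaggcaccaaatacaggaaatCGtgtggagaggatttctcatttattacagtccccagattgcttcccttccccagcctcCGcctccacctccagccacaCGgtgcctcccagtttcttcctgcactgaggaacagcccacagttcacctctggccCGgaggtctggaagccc
Adgrl4, chr3:151437632-151437881, plus strand: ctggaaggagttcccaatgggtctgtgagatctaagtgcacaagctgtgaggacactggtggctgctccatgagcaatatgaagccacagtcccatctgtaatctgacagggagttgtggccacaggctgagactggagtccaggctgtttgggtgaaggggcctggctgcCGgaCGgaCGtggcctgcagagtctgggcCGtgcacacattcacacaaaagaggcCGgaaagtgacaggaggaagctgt
S1pr5, chr9:21248444-21248693, minus strand: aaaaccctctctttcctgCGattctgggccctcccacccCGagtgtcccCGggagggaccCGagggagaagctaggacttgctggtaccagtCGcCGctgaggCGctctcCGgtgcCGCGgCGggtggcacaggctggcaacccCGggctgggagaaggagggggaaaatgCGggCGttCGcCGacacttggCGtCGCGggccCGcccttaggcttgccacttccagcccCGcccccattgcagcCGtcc
Gpr3, chr4:133212537-133212786, minus strand: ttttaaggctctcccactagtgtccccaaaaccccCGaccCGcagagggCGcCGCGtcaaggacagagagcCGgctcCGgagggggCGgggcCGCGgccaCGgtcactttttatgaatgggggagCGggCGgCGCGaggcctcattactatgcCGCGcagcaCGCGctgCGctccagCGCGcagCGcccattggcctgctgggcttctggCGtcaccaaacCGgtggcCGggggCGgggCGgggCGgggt

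In the window of 300 bases around the start (250 before and 50 after), Calcrl held 7 CG pairs, Adgrf5 and Adgrl4 held 8 each, S1pr5 held 27 and Gpr3 held 38. The 105 bases printed for Calcrl held 0, since the part of its window inside the gene was left out. The count did not sort members by direction, since F2r, which rose on HFD in WT, held 28, while Gpr55, P2ry14 and Ptger2, which fell, held 4, 4 and 3. The median over the 46 of 63 members with a window in the RefSeq table was 12.5, and over all 32851 windows it was 7 (quartiles 3 and 20). The letters CCGGAA, searched on both strands as the core to which factors of the ETS family bind, stood in 9 of the 46 member windows (19.6%) and in 14.9% of all windows. Among the printed genes only Adgrl4 held them. CCGGAA and the CG count overlap, since the motif holds a CG.

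TET2 KO mice on HFD differed from WT mice on HFD in the opposite sense for the endothelial receptors. Of the 36 members listed, edgeR called 31 (86.1%; 82.3% of all 3939 listed genes were called), of which 22 fell (61.1%, against 39.1%) and 9 rose (25%, against 43.1%). The median log2 fold change was -0.56 over the members and 0.33 over all listed genes. Without genes of a mean under 10 normalized counts the latter was -0.28. The groups did not overlap for 22 members (61.1%, against 74.7%). With edgeR, 0 members had an adjusted p under 0.05 (lowest 0.237), with limma-trend also 0, and with DESeq2 7. Over all 3939 listed genes DESeq2 gave 577, and edgeR and limma-trend gave 0. The calls numbered 11 without WT HFD replicate 1, 13 without TET2 KO HFD replicate 2, 18 without TET2 KO HFD replicate 3, 19 without WT HFD replicate 2 and 20 without TET2 KO HFD replicate 1. The excess of falls depended on the library left out. Without TET2 KO HFD replicate 2, 7 rose and 6 fell, without TET2 KO HFD replicate 3, 10 and 8, and without WT HFD replicate 1, 5 and 6. It stayed without TET2 KO HFD replicate 1 (5 rose, 15 fell), WT HFD replicate 2 (7 and 12) and WT HFD replicate 3 (7 and 17). Over all listed genes the calls fell too, from 3241 to 1490 without WT HFD replicate 1. This table shares the WT HFD libraries with the one above, so a high WT HFD library enters both.

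All 6 of the endothelial receptors listed were lower in TET2 KO on HFD and were called, with a median log2 fold change of -1.03. Of all 3939 genes listed in that comparison, 82.3% were called, 39.1% of them as lower and 43.1% as higher. Ramp2 had 6121, 3518 and 3293 normalized counts in TET2 KO and 13653, 8926 and 8115 in WT, and fell by 1.25 on the log2 scale (SE 0.30, edgeR adjusted p = 0.237). Gpr182 had 731, 574 and 303 in TET2 KO and 2247, 1408 and 839 in WT, and fell by 1.48 (SE 0.42, edgeR adjusted p = 0.237). In both genes every TET2 KO library lay below every WT library, and TET2 KO replicate 1 and WT replicate 1 were the highest of their groups.

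Calcrl had 20627, 11434 and 8398 normalized counts in TET2 KO and 35746, 30561 and 18204 in WT, so that TET2 KO replicate 1 exceeded WT replicate 3. It fell by 1.06 (SE 0.37, edgeR adjusted p = 0.247), Adgrl4 by 0.99 (SE 0.37) and Adgrf5 by 0.87 (SE 0.36). These 3 calls were lost without TET2 KO HFD replicate 2 or 3 or WT HFD replicate 1 or 2, and the log2 fold changes then and in the other fits lay between -1.51 and -0.81, -1.44 and -0.76, and -1.32 and -0.64. Lpar6 fell by 0.37 (SE 0.16) and kept its call only without TET2 KO HFD replicate 2, between -0.50 and -0.27.

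The endothelial markers fell here too. Of 16, 13 were listed and 12 called, all lower (92.3%, against 39.1% of all listed genes), with a median log2 fold change of -1.02. The summed level of the listed markers ran from 559 to 1007 FPKM in TET2 KO and from 1059 to 1928 FPKM in WT, with 0 of them at 0. TET2 KO replicate 1 was the highest of its group for 5 of 6 endothelial receptors and for 13 of 13 markers. The 2 lung epithelial markers listed here, Ager (-1.06, SE 0.30) and Hopx (-0.73, SE 0.23), fell as well. With the libraries scaled to the 12 listed markers other than Ramp2, the log2 fold change was -0.10 (SE 0.29) for Calcrl, -0.28 (SE 0.29) for Ramp2, -0.43 (SE 0.34) for Gpr182, -0.03 (SE 0.28) for Adgrl4, 0.09 (SE 0.28) for Adgrf5 and 0.66 (SE 0.39) for Lpar6, and none of the 6 was called. This scaling moved the median over all listed genes from 0.33 to 1.32, and over the members it gave 11 that rose and 0 that fell. The markers in the scale had been listed for a difference in this comparison, and all 13 listed markers were lower in TET2 KO. Scaling by them had to raise the log2 fold changes, so it cannot decide whether the receptors fell beyond the markers.

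Outside the endothelial list, Adrb1 and Rgs3 fell with all libraries apart. Adrb1 had 1108, 926 and 1634 normalized counts in TET2 KO and 3650, 2268 and 2153 in WT (-1.14, SE 0.29), and Rgs3 had 1668, 1537 and 1472 in TET2 KO and 3228, 2852 and 2459 in WT (-0.87, SE 0.16). Both kept their call without each of the 6 libraries. Gpr146, a receptor that acts on lipid metabolism in liver, fell by 0.60 (SE 0.21), and Adgrg6, a collagen IV receptor, by 0.65 (SE 0.24). The call of Gpr146 was lost without TET2 KO HFD replicate 2 or 3 or WT HFD replicate 1 (range -0.71 to -0.35) and that of Adgrg6 without TET2 KO HFD replicate 2 or 3 or WT HFD replicate 3 (range -0.83 to -0.44). P2ry1 fell by 0.76 (SE 0.32) from a mean of 87.2 normalized counts and Adgre5 by 0.42 (SE 0.15). The call of P2ry1 was lost without TET2 KO HFD replicate 1 or 3 or WT HFD replicate 1 or 3 (range -0.96 to -0.53), and that of Adgre5 without TET2 KO HFD replicate 1 or 2 or WT HFD replicate 1 or 3 (range -0.5 to -0.31).

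The members that rose in TET2 KO on HFD were led by Gpr3 and Lpar2 among those over 50 normalized counts. Gpr3 had 188, 157 and 84.1 normalized counts in TET2 KO and 42.5, 49.7 and 71.3 in WT, a log2 fold change of 1.40 (SE 0.37, edgeR adjusted p = 0.237). Lpar2 had 1169, 1213 and 725 in TET2 KO and 427, 528 and 522 in WT (1.07, SE 0.22, edgeR adjusted p = 0.237). In both genes the groups lay apart, and TET2 KO replicate 3 was the lowest of its group.

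Gpr132 had 25123, 23855 and 18371 in TET2 KO and 11937, 15009 and 13493 in WT (0.74, SE 0.17), and S1pr4, a lymphocyte receptor for sphingosine 1-phosphate, had 7622, 5949 and 5745 in TET2 KO and 4800, 4734 and 3650 in WT (0.55, SE 0.18). These 2 leukocyte receptors had no overlap between the groups, and the call of S1pr4 was lost without WT HFD replicate 3 (range of the 6 fits 0.41 to 0.63). Ramp3 rose by 0.85 (SE 0.35), but its 3647 normalized counts in TET2 KO replicate 1 stood far above the 1938 and 1320 of the other two, and the call was lost without that library or without any WT HFD library (range 0.35 to 1.13). Adra2b (50.3, 125 and 10.9 in TET2 KO, 7.33, 9.51 and 29.8 in WT), Lpar5 (128, 167 and 163 against 197, 177 and 427) and P2ry10 (30494, 21845 and 24475 against 14755, 24454 and 9569) were listed and not called.

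On chow, TET2 KO against WT, few members were listed. Of 13, edgeR called 8 (61.5%; 76.6% of all 1298 listed genes were called), of which 6 rose (46.2%, against 30.6%) and 2 fell (15.4%, against 46%), with a median log2 fold change of 0.66 over the members and -0.37 over all listed genes. The groups did not overlap for 8 (61.5%, against 74.7%). With edgeR, DESeq2 and limma-trend, 0 members had an adjusted p under 0.05 (lowest with edgeR 0.792). The calls at the unadjusted p were 8 with edgeR, 10 with DESeq2 and 8 with limma-trend, and edgeR's numbered 5 on leaving out replicate 1 of either group or replicate 2 of WT chow.

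The adhesion receptor Adgrg5, found on lymphocytes and granulocytes, had 1201, 789 and 1032 normalized counts in TET2 KO and 737, 497 and 574 in WT (log2 fold change 0.74, SE 0.22). Gpr141 had 936, 827 and 961 in TET2 KO and 548, 619 and 721 in WT (0.53, SE 0.16), and F2rl1 had 559, 350 and 624 in TET2 KO and 343, 220 and 247 in WT (0.92, SE 0.27). These 3 kept their call without each of the 6 libraries. Adgre5 rose by 0.45 (SE 0.19) and Rgs3 by 0.62 (SE 0.23). The call of Adgre5 held only without WT chow replicate 3 (range 0.28 to 0.57), that of Rgs3 only without TET2 KO chow replicate 2 (range 0.36 to 0.82).

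Adgrd1, another adhesion receptor, fell by 1.03 on the log2 scale (SE 0.29), with 49.3, 46.2 and 41.7 normalized counts in TET2 KO and 98.8, 118 and 64.6 in WT. The 4 listed markers of mural cells and fibroblasts, Col1a1, Col1a2, Col3a1 and Dcn, fell as well, from a summed 4.33 to 9.18 FPKM in WT to 3.05 to 3.86 FPKM in TET2 KO. The T cell markers rose, with 9 of 12 listed and 8 called (88.9%; 76.6% of all listed genes were called). Their summed level was 256 to 358 FPKM in TET2 KO against 147 to 242 in WT. Ccr2 (1.01, SE 0.20) and Cx3cr1 (0.75, SE 0.27) of the monocyte markers rose too. Their part in the changes of leukocyte receptors was not tested.

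The endothelial receptors Calcrl (log2 fold change 0.84, SE 0.46), Ramp2 (1.18, SE 0.54) and Gpr182 (1.32, SE 0.60) were listed on chow and not called. Each was high in 1 TET2 KO library. Calcrl had 29996, 13035 and 9800 normalized counts in TET2 KO and 7449, 7544 and 14427 in WT, Ramp2 had 12399, 4315 and 4316 against 2035, 2046 and 5186, and Gpr182 had 1649, 371 and 473 against 258, 228 and 510. Replicate 1 of TET2 KO chow was the highest of its group for all 3 and also for the 3 endothelial markers with values there, of which Ramp2 is 1. Without it the log2 fold changes were the lowest of the 6 fits, 0.22, 0.48 and 0.35. Adrb1 rose by 0.80 (SE 0.32) with overlapping groups and lost its call on leaving out replicate 1 of either group or replicate 2 of WT chow (range 0.41 to 1.06), and P2ry10 (-0.45, SE 0.21) and Gpr146 (0.66, SE 0.32) were not called.

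The same diets were compared in TET2 KO mice. Of 14 members listed, 8 were also listed for HFD in WT, and edgeR called 9 of the 14 (64.3%; 77% of all 1628 listed genes were called), of which 8 fell (57.1%, against 47.7%) and 1 rose (7.14%, against 29.3%), and the median log2 fold change was -0.62 over the members and -0.51 over all listed genes. The groups did not overlap for 7 (50%, against 72.6%). With edgeR, DESeq2 and limma-trend, 0 had an adjusted p under 0.05 (lowest with edgeR 0.706), against 9, 12 and 9 at an unadjusted p under 0.05. The calls numbered 4 without TET2 KO chow replicate 1 or 2 and 5 without TET2 KO HFD replicate 3. With TMM scaling over the listed genes, which raised the median of all listed genes by 0.25, 3 members rose and 3 fell. No endothelial receptor of the list was listed here.

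Of the 24 leukocyte receptors and RGS genes on the list 5 were listed, with a median log2 fold change of 0.57. Of these 2 fell (40%, against 47.7% of all listed genes) and 1 rose (20%, against 29.3%). Gpr34, a lysophosphatidylserine receptor of microglia and macrophages, had 73.7, 85.7 and 78.2 normalized counts on HFD and 280, 142 and 140 on chow, and fell by 1.24 on the log2 scale (SE 0.32, edgeR adjusted p = 0.706). P2ry13 had 398, 772 and 629 on HFD and 1223, 1584 and 927 on chow (-1.05, SE 0.30). Both had every HFD library below every chow library and kept their call without each of the 6 libraries. Ptger2 fell by 0.79 (SE 0.28), P2ry14 by 0.68 (SE 0.29) and F2rl1 by 0.64 (SE 0.27), each with overlapping groups, and P2ry6, a UDP receptor, had a log2 fold change of -0.60 (SE 0.29) and was not called.

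The macrophage markers were lower in the same libraries. Marco, Mrc1, Siglecf, Ccr2 and Lyz2 were the 5 of 11 monocyte and macrophage markers listed. Of these 3 were called (60%; 77% of all listed genes were called). They had a summed 4002 to 5608 FPKM on chow and 2018 to 3430 FPKM on HFD, with 0 of the 5 at 0. TET2 KO HFD replicate 1 was the lowest of its group for 4 of these 5 markers and for P2ry13, P2ry14, P2ry6 and Ptger2. The part of macrophages in the fall of these receptors was not tested. The calls of Ptger2, P2ry14 and F2rl1 were lost in 4 of the 6 fits that left out a library, with ranges of -1.04 to -0.62, -0.91 to -0.44 and -0.84 to -0.47. For Ptger2 these were the fits without TET2 KO HFD replicate 1 or 3 or TET2 KO chow replicate 1 or 2, for P2ry14 without replicate 1 or 3 on HFD or 2 or 3 on chow, and for F2rl1 without replicate 2 or 3 on HFD or 1 or 3 on chow.

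**Figure D4:**
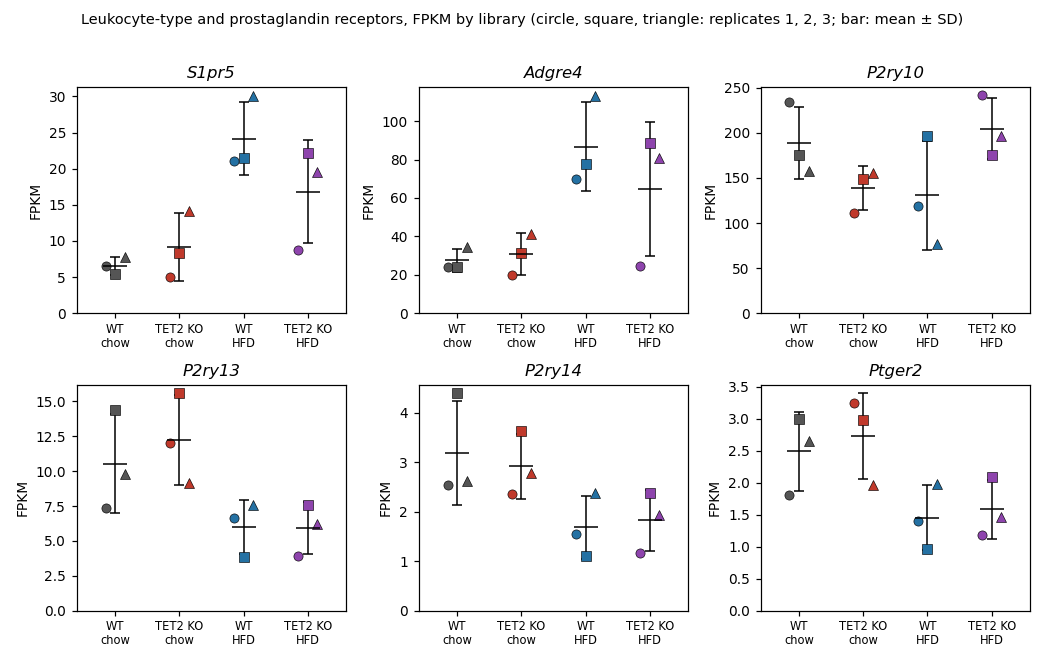
FPKM (y axis) of 5 leukocyte-type receptors and of Ptger2 in each library, by group (x axis); circle, square and triangle are replicates 1, 2 and 3, and bars give the mean ± SD of 3 libraries. S1pr5 has means of 6.56 FPKM in WT chow and 24.2 in WT HFD, and P2ry13 has 10.5 and 6.01 in WT and 12.3 and 5.90 in TET2 KO on chow and HFD.

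P2ry10, a lysophosphatidylserine receptor of lymphocytes, was the single member that rose on HFD in TET2 KO. It had 29006, 20992 and 23687 normalized counts on HFD and 13326, 17786 and 18653 on chow (0.57, SE 0.20, edgeR adjusted p = 0.718). The groups lay apart, but the call was lost without TET2 KO HFD replicate 1 or 3 or TET2 KO chow replicate 1 (range 0.43 to 0.67). The 5 listed T cell markers fell in the same comparison, from 187 to 255 FPKM summed on chow to 118 to 161 FPKM on HFD. Of 8 B cell markers 1 was listed, Blk, and it rose by 0.52 (SE 0.22). The part of these cells in the rise of P2ry10 was not tested. S1pr5 (0.88, SE 0.44) and Adgre4 (1.07, SE 0.47) were not called. For both, TET2 KO HFD replicate 1 (875 and 3443 normalized counts) stood near the chow libraries and the other two HFD libraries (2224 and 1958, and 12395 and 11350) above them. Gpr160, Gpr137 and Gpr155 fell by 0.55 (SE 0.19), 0.51 (SE 0.19) and 0.50 (SE 0.20), each with the groups apart. The calls of Gpr160 and Gpr137 were lost without replicate 1 or 2 of either group (ranges -0.65 to -0.46 and -0.62 to -0.4), and that of Gpr155 without TET2 KO HFD replicate 1 or TET2 KO chow replicate 1 or 2 (range -0.62 to -0.33).

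For the 16 members with values in all 12 libraries, the difference between the genotypes on the diets was tested as an interaction, the log2 difference of TET2 KO from WT on HFD minus that on chow. These genes have all 12 values because they were listed in both comparisons of the genotypes or in both comparisons of the diets. Over all 975 such genes 56.4% passed an unadjusted p under 0.05 and 28.6% did so with a negative value. Of the 16 members 9 passed, 8 with a negative value and 1 with a positive one. All 9 had an adjusted p under 0.05 over the 975, as did 541 of the 975 genes themselves. The median interaction was -0.94 over the members and 0.05 over the 975 genes.

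The negative interactions were largest for Gpr182 (-2.81, SE 0.82, edgeR adjusted p = 0.0176) and Ramp2 (-2.43, SE 0.69, edgeR adjusted p = 0.0166), followed by Adrb1 (-1.94, SE 0.49), Calcrl (-1.91, SE 0.66), F2rl1 (-1.52, SE 0.45), Rgs3 (-1.49, SE 0.31), Gpr146 (-1.26, SE 0.43) and Adgre5 (-0.88, SE 0.28). All 8 kept their call without each of the 12 libraries, but without TET2 KO chow replicate 1 the values shrank to -1.84 for Gpr182, -1.74 for Ramp2, -1.29 for Calcrl and -0.8 for Gpr146. By the mean of log2 FPKM, TET2 KO exceeded WT on chow and lay below it on HFD for each of the 8. Ramp2 had 23.3 ± 13.9 FPKM in WT chow, 52.7 ± 34.7 in TET2 KO chow, 74.3 ± 21.9 in WT HFD and 31.2 ± 11.1 in TET2 KO HFD (SD, n = 3 each). In this order of group means, WT HFD and TET2 KO chow overlap, as do TET2 KO chow and TET2 KO HFD, and TET2 KO HFD and WT chow.

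P2ry10 was the member with a positive interaction (1.10, SE 0.44, edgeR adjusted p = 0.0485), and its call was lost without TET2 KO chow replicate 1, TET2 KO HFD replicate 1, WT chow replicate 1, WT HFD replicate 1 or WT HFD replicate 3 (range 0.83 to 1.52). For P2ry13 (-0.25, SE 0.48), P2ry14 (0.24, SE 0.48) and Ptger2 (-0.01, SE 0.45) the interaction was small against its SE. The fall on HFD was thus not shown to differ between WT and TET2 KO for these 3 genes, nor was it shown to be equal.

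**Figure D5:**
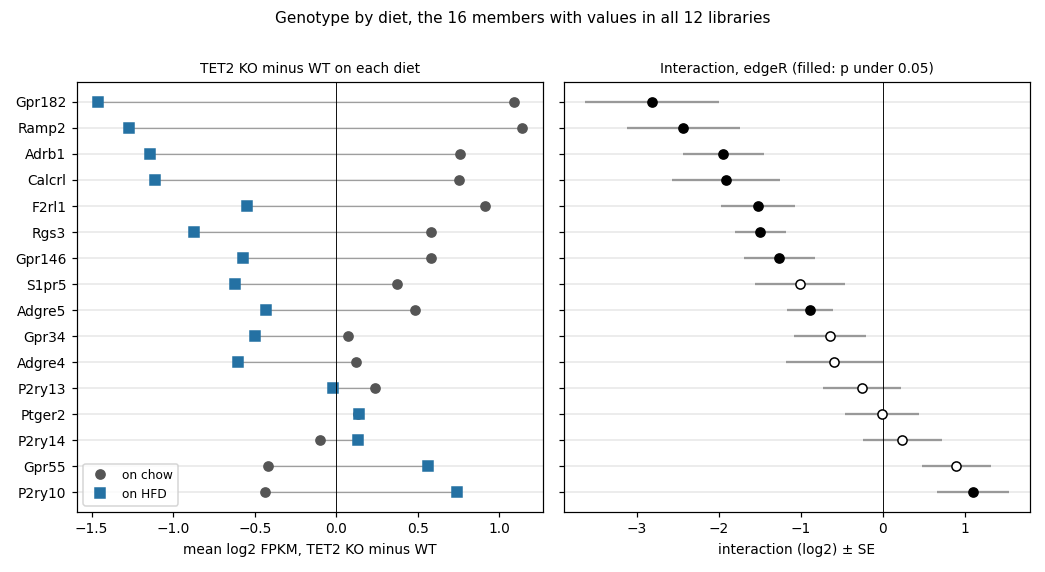
Left, mean log2 FPKM of TET2 KO minus WT (x axis) on chow (grey circles) and on HFD (blue squares) for the 16 members with values in all 12 libraries (rows); right, the interaction on the log2 scale with its SE, filled where the unadjusted edgeR p is under 0.05. Gpr182 and Ramp2 lie farthest to the left at -2.81 and -2.43, and P2ry10 farthest to the right at 1.10.

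Genes that act next to these receptors were read from lists of G protein subunits, receptor kinases and arrestins, second messenger enzymes, and makers and breakers of ligands, with other receptors of endothelium beside them. For HFD in WT, 11 of 30 G protein subunits were listed (6 rose, 4 fell), 4 of 16 receptor kinases and arrestins (4 rose), 16 of 27 second messenger enzymes (11 rose, 5 fell), 16 of 34 ligand genes (9 rose, 7 fell) and 17 of 38 other receptors (11 rose, 4 fell). Of all 7330 genes listed in that comparison, 91.6% were called, 42.4% higher and 49.2% lower. Grk3, a kinase that turns receptors off, rose by 1.14 (SE 0.19), and Arrb1, an arrestin, rose by 0.95 (SE 0.14). Thbd, which binds thrombin at the endothelial surface, rose by 1.66 (SE 0.37), and Hpgd, which breaks down prostaglandins, by 1.72 (SE 0.37). Gna13, a G protein alpha subunit, fell by 0.48 (SE 0.12), and the phosphodiesterase Pde3b by 0.88 (SE 0.16).

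For TET2 KO against WT on HFD, 8 G protein subunits were listed (3 rose, 3 fell), 4 receptor kinases and arrestins (3 fell), 9 second messenger enzymes (3 rose, 5 fell), 7 ligand genes (6 fell) and 14 other receptors (2 rose, 8 fell). Of all 3939 genes listed in that comparison, 82.3% were called, 43.1% higher and 39.1% lower. Thbd fell by 1.16 (SE 0.23), Hpgd by 1.05 (SE 0.24), Arrb1 by 0.50 (SE 0.14) and the frizzled receptor Fzd4 by 1.00 (SE 0.29). Gna13 rose by 0.59 (SE 0.19) and Pde3b by 0.76 (SE 0.19). In the other comparisons few of these genes were listed. On chow, 1 subunit, 1 kinase or arrestin, 2 second messenger enzymes, 4 ligand genes and 7 other receptors were listed for TET2 KO against WT, and Ptgs2, which makes prostaglandin precursors, rose by 0.57 (SE 0.23) and the endothelin receptor Ednrb by 0.45 (SE 0.14). For HFD in TET2 KO these numbers were 1, 2, 4, 5 and 4, and the chemokine scavenger Ackr2 fell by 1.07 (SE 0.45) and the cyclic AMP kinase subunit Prkar2b by 1.01 (SE 0.27).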

How the data were processed

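Per the study's methods, filtered read pairs were aligned by the authors to mm10 with HISAT2; they counted reads per gene with featureCounts and tested the groups with DESeq2. The versions, the annotation release and the strand setting are not given in the sources used here. The authors deposited raw counts, a normalized signal (the count divided by 1 size factor per library and table), FPKM, gene length, and their own log2 fold change, p-value and adjusted p-value. Of these columns of the authors' comparisons only the p-values were used, to recover the number of genes they adjusted. Each deposited table holds only genes with an unadjusted p-value under 0.05. Normalized counts were compared within a table and FPKM across tables.

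Groups came from the sample labels. Counts of all listed genes were tested with edgeR 4.0.16 (quasi-likelihood, R 4.3.3), using the 2 groups compared, no covariate and library sizes from the authors' size factors; the interaction used all 12 libraries and the 975 genes with a value in each. Because listed genes had already been selected for a difference, so had those that set edgeR's dispersion, and the p-values take no account of this. An exact permutation test of 3 against 3 cannot go below p = 0.1. The labels name 3 biological replicates per group. Alternatives were DESeq2 1.42.0, limma-trend (limma 3.58.1, log2 of the normalized count plus 1), TMM over listed genes, library totals, a minimum mean of 10 normalized counts, calls at an adjusted p under 0.05 or beyond a log2 fold change of 1, a term for the replicate number, and each library left out. The fits were tested on simulated data. Python 3.11.15, numpy 2.4.6, pandas 2.3.3 and matplotlib 3.10.9 made summaries and figures.

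The members and lists were chosen with earlier results of these data known. Named members were, per comparison, the called members without overlap between groups whose larger group mean reached 50 normalized counts, ranked by size of change, up to 5 in each direction; every listed member of the S1pr, Lpar, F2r, P2ry, Ptger, Adra, Adrb, Calcrl and Ramp families; members in 3 tables; and members called for the interaction. Of other lists, the 2 called with the largest mean FPKM per direction could be named. An additional scaling to endothelial markers was chosen after seeing the data. Its markers had been listed for a difference in the same comparison. Adgrf5, Adgrl4, Gpr22, the markers and Fzd4 were named after their values were seen.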

Additional observations from a re-analysis of the deposited data

Results flagged for a closer look

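For 9 members the difference between TET2 KO and WT on HFD differed from that on chow by the test of the interaction (edgeR, all 12 libraries). The interaction, on the log2 scale, was -0.88 for Adgre5, -1.94 for Adrb1, -1.91 for Calcrl, -1.52 for F2rl1, -1.26 for Gpr146, -2.81 for Gpr182, 1.10 for P2ry10, -2.43 for Ramp2 and -1.49 for Rgs3. The 975 genes tested had to be listed in both comparisons of the genotypes or in both of the diets, and 56.4% of them passed the same threshold. For Calcrl, Ramp2 and Gpr182, TET2 KO chow replicate 1, TET2 KO HFD replicate 1, WT chow replicate 3 and WT HFD replicate 1 were the highest of their groups, as they were for most endothelial markers, and the part of those markers in the interaction was not tested.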

How the results depend on the processing

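The directions of the 4 pairwise comparisons among the named members did not reverse under DESeq2, limma-trend, TMM, library totals, the minimum of 10 counts, the block or leaving out a library. Under an adjusted p under 0.05 the calls fell from 8 to 0 (TET2 KO on chow), 41 to 14 (HFD in WT), 31 to 0 (TET2 KO on HFD) and 9 to 0 (HFD in TET2 KO), and with a log2 fold change over 1 to 2, 23, 11 and 2. Leaving out 1 library gave 5 to 11, 25 to 41, 11 to 24 and 4 to 11 calls, and 8 to 10 for the interaction. Equal replicate numbers were not taken as pairs of mice. Same-number correlations ran from -0.226 to 0.266 and were all above 0 only for HFD in TET2 KO (0.067 to 0.251). Such correlations cannot settle whether mice were paired. A fit with the replicate number as a block gave 6, 34, 28 and 14 calls, and 10 for the interaction. The sign of the interaction reversed for P2ry14 under TMM (-0.08) and without WT chow replicate 2 (-0.06; range over libraries left out -0.06 to 0.58), and for Ptger2, whose value was near 0, under limma-trend (0.01) and without 6 of the 12 libraries in turn (0.04 to 0.27; range over all 12 -0.27 to 0.27). Scaled to endothelial markers, F2r (-0.82) and Lpar6 (-0.46) reversed for HFD in WT, and Adgrf5 (0.09) and Lpar6 (0.66) for TET2 KO on HFD. Read depth limits the members with few reads, such as Gpr22, Gpr61 and Gpr75, which had a count of 0 in at least 1 library.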

Other observations

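Most members with few reads were not described singly above, but the counts of calls and the medians given there include them. Gpr61 and Gpr22, receptors best known from brain, and Gpr62 and Adgrf3 were called higher in TET2 KO on HFD. Gpr22 had 5.03, 8.50 and 7.64 normalized counts in TET2 KO and 2.20, 0 and 1.06 in WT, and Gpr61 had 11.1, 3.19 and 6.55 against 1.47, 2.11 and 0. Gpr62, an oligodendrocyte receptor, had 34.2, 19.1 and 12 against 8.06, 7.40 and 9.58, and in WT mice it had 8.12, 7.40 and 9.64 on HFD against 25.7, 29.4 and 21.5 on chow. Gpr17, a receptor of oligodendrocyte precursors, had 74.7 normalized counts in WT HFD replicate 1 and 26.4 and 23.4 in the other two, against 7.04, 19.1 and 19.6 in TET2 KO HFD. Gpr151, a receptor of the habenula, fell in TET2 KO on chow, to 6.64, 13.5 and 13.2 from 27.0, 20.7 and 25.6 in WT, and in WT it was lower on HFD, with 5.91, 8.46 and 3.21.

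Some members changed by small amounts. Gpr107 had 3012, 2841 and 2887 normalized counts on HFD and 2365, 2326 and 2474 on chow in WT (log2 fold change 0.29, SE 0.10), and Gpr108 had 2707, 2626 and 2958 against 2237, 2272 and 2297 (0.28, SE 0.10). Every HFD library lay above every chow library for both. For TET2 KO on HFD, Gpr107 was listed and not called (-0.29, SE 0.13). Gpr180, a further numbered receptor, rose by 0.43 (SE 0.13) in the same comparison and fell by 0.37 (SE 0.14) in TET2 KO on HFD, and Gpr89, a Golgi channel, fell by 0.32 (SE 0.13) there. These genes were chosen after their values were seen.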
